A study of Mus musculus with 35 samples.

Results

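The immediate early genes Fos, Fosb, Junb, Egr1, Arc, Npas4, Nr4a1, Ier2, Dusp1 and Atf3 were followed through 29 libraries of ribosomal RNA-depleted total RNA from mouse tissues. They were taken by symbol and are 10 of the 55356 genes in the count table. The libraries came from adult C57BL/6J mice, an inbred laboratory strain, and no treatment or genetic change is named. Brain, cerebellum, heart and colon were sampled in both sexes, ovary in females and testis in males, so that tissue and sex gave 10 groups, each of 3 libraries apart from male heart, which had 2. The labels do not say which libraries came from one animal, so that p-values measure the spread between libraries, which may in part be technical. A library held between 11742417 and 36194255 counted reads.

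Immediate early genes are transcribed within minutes of a signal reaching the cell, from transcription factors such as CREB and SRF that are already present, and their messages are short-lived. Calcium entry during neuronal firing is the best known trigger in brain, while growth factors, stretch, injury and the handling of tissue act in other organs. Fos, Fosb and Junb are subunits of the AP-1 transcription factor. Egr1 is a zinc finger factor, Npas4 a neuronal activity-dependent helix-loop-helix factor, Nr4a1 an orphan nuclear receptor, and Atf3 a stress-induced factor of the ATF/CREB family. Arc is a synaptic protein that governs removal of AMPA receptors, Dusp1 is a phosphatase that switches off MAP kinases, and Ier2 is a small nuclear protein.

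For 9 of the 10 genes the counted locus was an Iso-seq locus paired with 1 ENSEMBL gene, and Npas4 was counted under its ENSEMBL gene. None of the 10 shares exon bases with another gene of the annotation used for counting. The RefSeq promoter table for GRCm38.p6 holds 7 of the 10 genes, all but Egr1, Arc and Ier2. The 250 bases before the RefSeq start were read on both strands for TGACG, the core of the cAMP response element TGACGTCA that CREB and ATF factors bind. All 7 held TGACG, against 17.7% of 32817 promoters, and the full TGACGTCA, which contains TGACG on either strand, was found in 1 of 7, against 1.55%. The AP-1 element TGACTCA was found in 0 of 7 (4.46% of all promoters), TATAAA in 1 of 7 (12.4%) and the GC box GGGCGG in 6 of 7 (32.7%). The CArG box that SRF binds was found in 0 of 7 windows (1.47% of all). These matches describe letters in a 250-base window only. The windows of 5 genes are printed because they show where the element lies relative to the start, with TGACG or TGACGTCA on either strand in capitals. They are chr12:85473640-85473889 on the plus strand for Fos, and on the minus strand chr7:19310046-19310295 for Fosb, chr8:84978749-84978998 for Junb, chr17:26508473-26508722 for Dusp1 and chr1:191183334-191183583 for Atf3.
Fos: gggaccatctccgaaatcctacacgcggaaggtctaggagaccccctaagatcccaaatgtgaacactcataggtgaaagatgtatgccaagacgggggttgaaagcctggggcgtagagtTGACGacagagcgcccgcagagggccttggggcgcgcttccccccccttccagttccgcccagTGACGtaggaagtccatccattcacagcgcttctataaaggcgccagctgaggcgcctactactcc
Fosb: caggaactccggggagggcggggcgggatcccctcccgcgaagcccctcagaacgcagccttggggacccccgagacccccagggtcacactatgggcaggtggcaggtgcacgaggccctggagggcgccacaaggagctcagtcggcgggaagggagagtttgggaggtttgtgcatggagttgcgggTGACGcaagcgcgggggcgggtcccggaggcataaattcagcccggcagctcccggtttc
Junb: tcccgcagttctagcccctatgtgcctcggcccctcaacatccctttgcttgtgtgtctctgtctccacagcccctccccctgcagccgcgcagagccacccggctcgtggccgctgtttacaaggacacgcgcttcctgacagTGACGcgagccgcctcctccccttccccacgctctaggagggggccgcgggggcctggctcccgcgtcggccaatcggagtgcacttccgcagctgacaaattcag
Dusp1: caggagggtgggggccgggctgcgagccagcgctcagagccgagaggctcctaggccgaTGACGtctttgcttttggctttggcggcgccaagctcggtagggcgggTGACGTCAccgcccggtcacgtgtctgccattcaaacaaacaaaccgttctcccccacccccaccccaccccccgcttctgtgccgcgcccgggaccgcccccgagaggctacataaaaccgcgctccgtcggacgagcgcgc
Atf3: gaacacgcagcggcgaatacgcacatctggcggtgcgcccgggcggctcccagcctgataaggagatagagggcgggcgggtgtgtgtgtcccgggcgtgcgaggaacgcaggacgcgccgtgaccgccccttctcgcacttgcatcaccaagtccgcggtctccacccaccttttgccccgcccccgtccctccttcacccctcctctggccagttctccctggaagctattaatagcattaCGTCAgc
In Fos the copy nearer the start lies 66 to 62 bases before it, with TATAAA at 33 to 28 bases, and in Fosb the single copy lies at 60 to 56 bases. The complete element of Dusp1 lies 143 to 136 bases before the start. Npas4 held 2 copies and Nr4a1 held 4. Their sequences are not shown because the locus as counted begins upstream of the RefSeq start.

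Levels are given as FPKM, computed from the counts as fragments per kilobase of merged exons and scaled to the total counted reads of the library, so that genes can be compared. A log2 difference is from the count model instead, which scales libraries by trimmed mean (TMM) factors. These factors lay between 0.928 and 1.14 in brain and cerebellum but between 1.30 and 1.45 in ovary. Their mean log2 was -0.43 in heart, -0.21 in testis and 0.43 in ovary. Against total counts they thus raise every gene in heart and testis and lower every gene in ovary by that amount. Where this changes a call, both values are given. Marker genes followed the tissue labels. Summed neuron markers lay between 1478 and 4011 CPM in brain and cerebellum and at most at 40.6 CPM elsewhere, cardiomyocyte markers reached at least 15614 CPM in heart only, and colon epithelium markers 14482 to 26762 CPM in colon. Granulosa and luteal markers lay between 4416 and 5295 CPM in ovary. The neuron marker Syt1 was counted on a locus that joins it with Gm5136. In bulk tissue, fewer cells of a type and less RNA per cell cannot be told apart.

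Of all libraries, the third of female heart stood apart, and results that rest on it are given with and without it. Its TMM factor was 1.12, against 0.604 to 0.711 in the other 4 heart libraries. Summed cardiomyocyte markers (Myh6, Actn2, Tnnt2, Ryr2) reached 15614 CPM in it and 30677 to 39215 CPM in the other 4. Summed red cell markers, hemoglobin genes, reached 4503 CPM in it and 5724 to 15560 CPM in the others. Summed immune markers were higher, at 797 CPM against 235 to 324, and so were fibroblast markers, at 2191 against 847 to 1252. All 4 markers of each of these lists had counts in heart.

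On the FPKM scale, which uses total counts, all 10 genes were higher in female heart library 3 than in every other heart library. Fos was 9.13 FPKM in it, and 0.741, 0.435, 0.920 and 0.230 FPKM in female libraries 1 and 2 and male libraries 1 and 2. That is 15.5 times the median of the other 4. With TMM factors in place of total counts, the log2 ratio of this library to the others is smaller by 0.73 for every gene. Fosb was 7.88 times, Egr1 7.13 times and Nr4a1 5.66 times that median. Junb, Arc, Atf3 and Ier2 were 3.36, 3.25, 2.74 and 2.66 times it, while Dusp1 was 1.29 times it. For Dusp1 this direction turned with TMM factors, where its deviation from the female heart mean was 0.01 on the log2 CPM scale in library 3 and 0.69 in library 1. The part of the shift in cell type markers in these values was not tested. In ovary, library 3 was the highest for 8 of the 10 genes, Fos among them at 6.28 FPKM against 1.95 and 2.21, and Fosb and Npas4 were the exceptions. Its red cell markers were 66.9 CPM against 135 and 208 in the other ovary libraries, while immune markers were 219 CPM against 253 and 257. Some lists were higher in it than in both others. Endothelium markers were 278 CPM against 189 and 241, fibroblast markers 2189 against 1560 and 2079, and granulosa and luteal markers 5295 against 4416 and 4904. Further lists lay lower or between, and the part of these shifts was not tested.

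**Figure D1:**
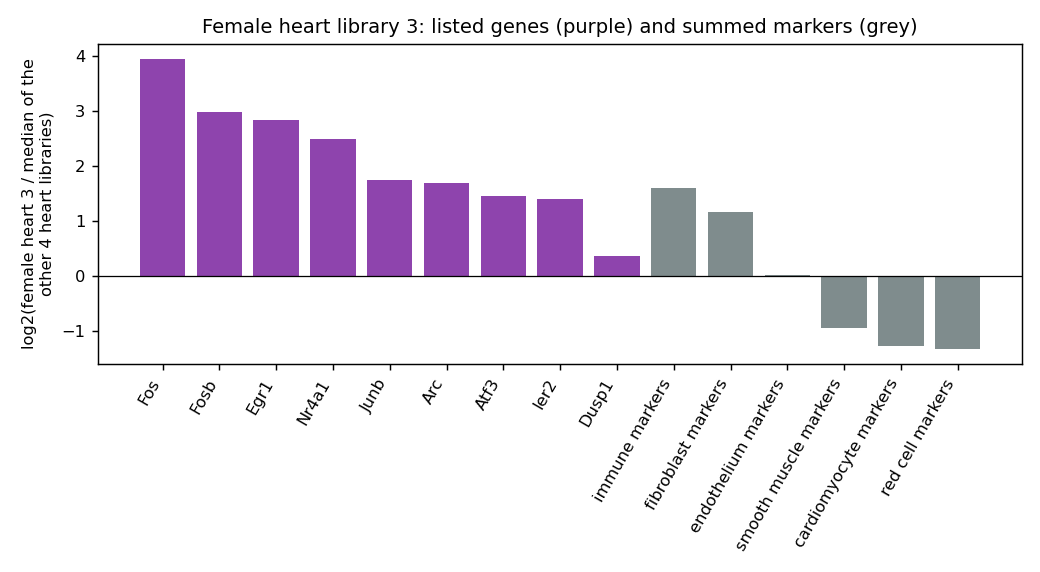
Log2 ratio of female heart library 3 to the median of the other 4 heart libraries, for FPKM of the listed genes (purple) and for summed CPM of marker lists (grey). Values are scaled to total counts. Fos stands highest at 15.5 times the median and Dusp1, whose direction turns with TMM factors, lowest of the genes at 1.29 times, while cardiomyocyte, smooth muscle and red cell markers lie below 0. Npas4 is left out because the other 4 libraries held 0 counts of it.

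The level of each gene was next followed over the 6 tissues. All 10 passed the filter on low counts and all 10 were called different between tissues (edgeR quasi-likelihood F test, adjusted p below the 0.05 threshold), as were 95.5% of the 29911 genes tested, so this count says little about these genes. Summed over the 15 pairs of tissues, 112 of 150 tests were called, against 58.6% over all genes. Colon had the highest mean for Fos, Junb, Ier2 and Atf3, brain for Fosb, Egr1 and Npas4, testis for Arc and Nr4a1, and heart for Dusp1. Without female heart library 3, heart moved from rank 4 to rank 6 for Nr4a1, from 5 to 6 for Egr1, from 4 to 5 for Arc and from 3 to 4 for Ier2.

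**Figure D2:**
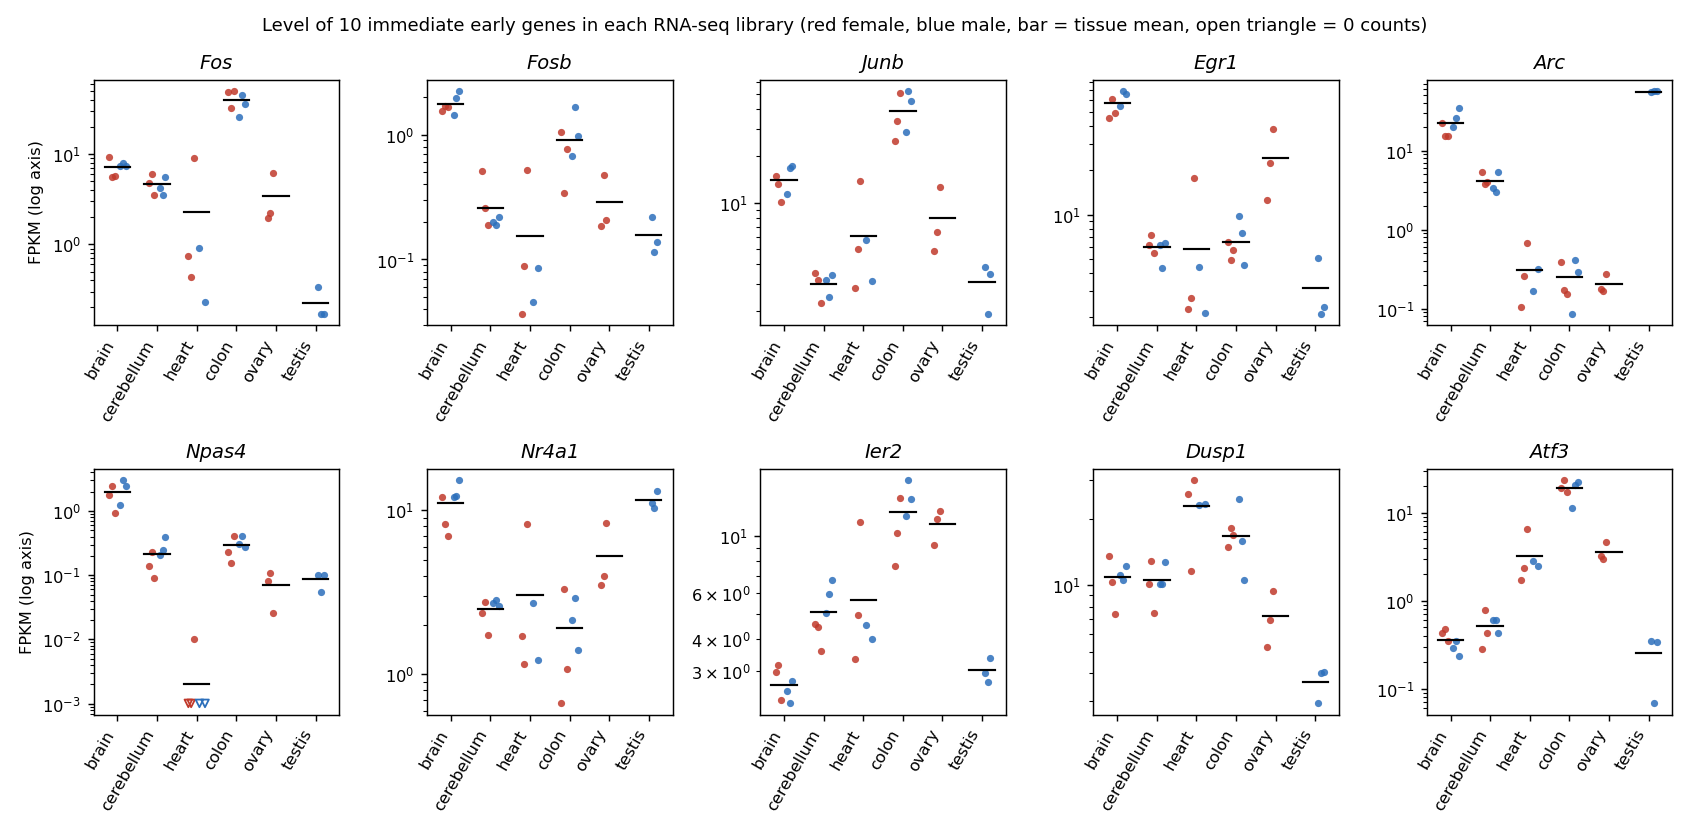
FPKM on a log axis in each library of 6 tissues, 1 panel per gene, red for female and blue for male libraries, with a bar at the tissue mean and open triangles at 0 counts. Arc is at 54.3 to 56.9 FPKM in testis and below 1 in heart, colon and ovary, while 1 red point stands above the rest of heart in most panels.

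Fos, on chromosome 12 (85473890 to 85477273, plus strand, 4 exon blocks), was highest in colon. There it ranged from 25.7 to 50.6 FPKM with a median of 40.8, and every colon library was above every library of the other tissues. In brain it ranged from 5.66 to 9.46 FPKM with a median of 7.43, and in cerebellum from 3.50 to 6.06 with a median of 4.51, so the 2 neural tissues overlapped. Testis was lowest at 0.333, 0.169 and 0.170 FPKM, from 11 to 20 reads a library. Colon was above brain by 2.32 on the log2 scale (adjusted p = 1.61e-05), and heart above testis by 2.70 (adjusted p = 0.00155). Brain, cerebellum, ovary and heart were not called different from one neighbour to the next in that order. Farther apart, brain was called above heart (2.11, adjusted p = 0.000447) and above ovary (1.46, adjusted p = 0.0184). Cerebellum was called above heart (1.34, adjusted p = 0.0186). The heart mean was 2.29 ± 3.83 FPKM (SD, n = 5) with female library 3 and 0.582 ± 0.308 (SD, n = 4) without it. The testis mean was 0.224 ± 0.0948 (SD, n = 3), so the size of heart above testis rests in part on that library. Without it, heart was called lower than ovary (heart minus ovary -1.62 on the log2 scale, adjusted p = 0.00199). Cerebellum was called higher than ovary without ovary library 3 (1.47, adjusted p = 0.0418).

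Fosb, on chromosome 7 (19302690 to 19310045, minus strand), was far lower per length than Fos in colon but followed another order. Its mean was 1.76 ± 0.293 FPKM (SD, n = 6) in brain and 0.911 ± 0.450 (SD, n = 6) in colon. Brain was above colon by 1.14 on the log2 scale (adjusted p = 0.00719), although male colon library 2, at 1.68 FPKM, lay within the brain range of 1.44 to 2.24. Colon was above ovary by 1.89 (adjusted p = 0.00249). The other 4 tissues had means between 0.155 and 0.288 FPKM, and none of these neighbours were called different. The lowest of them, heart, was 0.0642 FPKM without female library 3.

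Junb, a single-exon gene on chromosome 8 (84976915 to 84978718, minus strand), was highest in colon, between 25.0 and 52.4 FPKM. Brain followed at 10.1 to 17.2 FPKM without overlap, and colon exceeded it by 1.36 on the log2 scale (adjusted p = 7.75e-05). Cerebellum, between 2.25 and 3.52 FPKM, was lowest in the mean and was not called different from testis at 3.09 ± 1.03 (SD, n = 3). Ovary, at 4.92, 6.44 and 12.6 FPKM, and heart were not called different, and brain above ovary (1.21 on the log2 scale, adjusted p = 0.00418) was lost with total counts in place of TMM (0.79, adjusted p = 0.0775). Heart above testis (1.01, adjusted p = 0.0165) was lost with total counts too (0.87, adjusted p = 0.0600), without male heart library 1 (0.76, adjusted p = 0.0990) and without testis library 2 (0.80, adjusted p = 0.0876).

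Egr1, on chromosome 18 (34861207 to 34864958, plus strand), reached the highest mean FPKM of any listed gene in any tissue, 57.6 ± 9.37 (SD, n = 6) in brain. Arc in testis was close at 55.8 FPKM, and TMM factors raise testis, so this order rests on scaling to total counts. Brain libraries ranged from 45.5 to 69.3 FPKM, above all others. Ovary was next, at 12.5, 22.6 and 37.9 FPKM, and brain exceeded it by 1.65 on the log2 scale (adjusted p = 0.00122). Ovary in turn exceeded colon by 1.66 (adjusted p = 0.000547). Colon, cerebellum and heart had means of 6.46, 5.98 and 5.82 FPKM and were not called different in that order. The heart mean was 2.87 FPKM without female library 3. Only testis library 1, at 5.10 FPKM, was above 3 in testis, and without that library heart above testis was called (1.23 on the log2 scale, adjusted p = 0.0278).

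Arc, on chromosome 15 (74669084 to 74672612, minus strand, 4 transcripts in the counting annotation), was highest in testis. The 3 testis libraries gave 54.3, 56.9 and 56.3 FPKM, from 4785, 5447 and 5364 reads, a mean of 55.8 ± 1.36 (SD, n = 3). In brain it ranged from 15.1 to 34.7 FPKM with a median of 21.1, so that no brain library reached testis. Testis exceeded brain by 1.56 on the log2 scale (adjusted p = 7.94e-06), and brain exceeded cerebellum. Cerebellum ranged from 2.98 to 5.36 FPKM and exceeded heart by 3.33 on the log2 scale (adjusted p = 7.26e-10). Heart, colon and ovary had means of 0.305, 0.249 and 0.208 FPKM, from 5 to 51 reads a library, and these neighbours were not called different. The ends of that order were, with heart above ovary by 1.24 (adjusted p = 0.0235). Heart above colon was called without female heart library 1 (0.90, adjusted p = 0.0449) and without male colon library 2 (1.06, adjusted p = 0.0301). The counts do not separate the 4 transcripts. In testis, summed spermatid markers (Prm1, Tnp1, Prm2, Acrv1) lay between 9578 and 11628 CPM, and summed neuron markers between 4.67 and 5.98 CPM.

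Npas4, on chromosome 19 (4984355 to 4990316, minus strand), was the lowest of the listed transcription factors outside brain. In brain it ranged from 0.940 to 3.01 FPKM with a median of 2.11. Colon, at 0.156 to 0.412 FPKM, and cerebellum, at 0.0893 to 0.394, were not called different (adjusted p = 0.231). Brain exceeded colon by 2.88 on the log2 scale (adjusted p = 9.18e-08) and no library overlapped. In heart, 4 of 5 libraries had 0 reads, which for 3 reads as the limit that a count of 0 allows is a level of up to 0.0370 FPKM in the shallowest of them, and female library 3 had 1 read. That limit covers counting error alone. The fitted difference of ovary over heart was called (adjusted p = 0.00244), but its size depends on the prior count and is not given. Cerebellum, testis and ovary were not called different as neighbours, although with total counts cerebellum was called above testis (1.25, adjusted p = 0.0241). Cerebellum, not a neighbour of ovary, was called above it (1.85, adjusted p = 0.00364).

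Nr4a1, on chromosome 15 (101260676 to 101274793, plus strand), had nearly equal means in testis and brain. Testis libraries gave 11.1, 10.4 and 13.2 FPKM, and brain ranged from 6.98 to 15.3 with a median of 12.1, so they overlapped and were not called different (adjusted p = 0.546). Ovary followed at 3.50, 3.99 and 8.40 FPKM, below brain by 1.46 on the log2 scale (adjusted p = 0.00565), a call lost with total counts (1.05, adjusted p = 0.0630). Ovary, heart, cerebellum and colon were not called different from their neighbours in that order. Pairs farther apart were called, with colon minus ovary at -1.16 (adjusted p = 0.0211) and heart minus colon at 0.92 (adjusted p = 0.0406). Colon libraries spread from 0.664 to 3.32 FPKM, and without female colon library 2, the highest, cerebellum was called above colon (0.87, adjusted p = 0.0286).

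Ier2, a single-exon gene on chromosome 8 (84661335 to 84662852, minus strand), had the smallest ratio of highest to lowest tissue mean. Colon ranged from 7.69 to 16.4 FPKM, and ovary, at 9.24, 11.7 and 12.4, lay inside that range. Brain was lowest, between 2.26 and 3.17 FPKM. Heart above cerebellum was called with TMM factors (0.58 on the log2 scale, adjusted p = 0.00923), and with total counts cerebellum minus heart was -0.08 (adjusted p = 0.846). The remaining neighbours were not called different, although heart, not a neighbour of colon, was called below it (-0.72, adjusted p = 0.00200). DESeq2 called colon above ovary (0.63, adjusted p = 0.00472) and brain below testis (-0.61, adjusted p = 0.00683), and total counts put heart below ovary (-1.07, adjusted p = 0.00110) and cerebellum above testis (0.72, adjusted p = 0.0188).

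Dusp1, on chromosome 17 (26505594 to 26508472, minus strand), was highest in heart. The heart libraries gave 25.9, 11.6 and 29.9 FPKM in females and 23.1 and 23.3 in males, and female library 2 was the low one. Colon ranged from 10.6 to 24.5 FPKM and overlapped heart. Heart exceeded colon by 1.02 on the log2 scale (adjusted p = 0.000438), which with total counts was 0.44 (adjusted p = 0.104). Brain and cerebellum were close, with means of 10.9 ± 2.06 and 10.6 ± 2.04 FPKM (SD, n = 6 each). Colon above brain (0.49, adjusted p = 0.0471) was just inside the threshold and was lost in 17 of 35 alternatives, most of them fits without 1 library. Without male colon library 1, brain minus colon was -0.34 (adjusted p = 0.176). Cerebellum above ovary (0.84, adjusted p = 0.0122) was lost with total counts (0.55, adjusted p = 0.0936) and without ovary library 1 (0.61, adjusted p = 0.0992). Testis was lowest, between 2.92 and 4.06 FPKM over its 3 libraries, and was not called different from ovary, except with total counts (0.99, adjusted p = 0.00746).

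Atf3, on chromosome 1 (191170299 to 191183253, minus strand), separated the tissues into 3 levels. Colon stood at 11.3 to 23.3 FPKM, with a median of 19.7. Ovary, at 3.19, 2.99 and 4.66 FPKM, and heart, at 1.72, 2.34 and 6.57 in females and 2.83 and 2.46 in males, were not called different. Colon exceeded ovary by 2.68 on the log2 scale (adjusted p = 4.68e-07), and heart exceeded cerebellum by 3.03 (adjusted p = 1.95e-09). Cerebellum, brain and testis, with means of 0.523, 0.356 and 0.255 FPKM from 4 to 38 reads a library, were not called different.

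Brain against cerebellum compares the neural tissues, where several of these genes follow neuronal firing. Of the 10 genes, 6 were higher in brain, Fosb, Junb, Egr1, Arc, Npas4 and Nr4a1, when 15.3% of all genes tested were higher, and 1 was lower, Ier2, when 10.8% were lower. The brain and cerebellum libraries did not overlap for any of these 7. The median log2 difference over the 10 genes was 2.30, and over all genes tested 0.00. Egr1 and Npas4 were 10.6-fold and 10.4-fold higher in brain, by 3.40 (SE 0.34, adjusted p = 2.07e-08) and 3.38 (SE 0.36, adjusted p = 6.82e-08) on the log2 scale. Fosb was higher by 2.93 (SE 0.39, adjusted p = 1.84e-06), Arc by 2.52 (SE 0.24, adjusted p = 7.04e-09), Junb by 2.34 (SE 0.28, adjusted p = 4.84e-07) and Nr4a1 by 2.26 (SE 0.35, adjusted p = 1.71e-05). Ier2 was 1.71-fold lower in brain (SE 0.18 on the log2 scale, adjusted p = 0.00156). Dusp1 (0.16, adjusted p = 0.686) and Atf3 (-0.42, adjusted p = 0.376) were not called different. Fos, higher in brain by 0.78 (SE 0.40), was not called with all 29 libraries in the fit (adjusted p = 0.163). It was called with brain and cerebellum libraries alone (0.71, adjusted p = 0.00323) and without female heart library 3 (0.78, adjusted p = 0.0294).

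**Figure D3:**
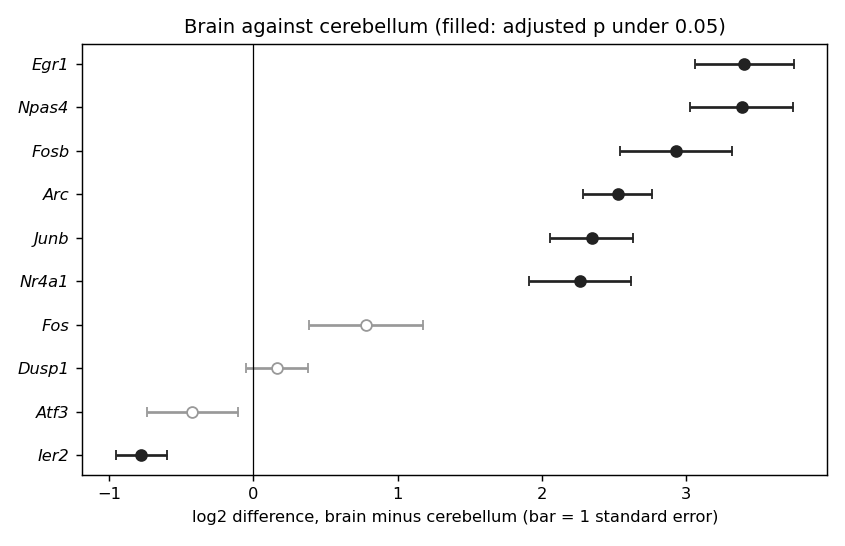
Log2 difference of brain minus cerebellum for the 10 genes, with bars of 1 standard error from the edgeR fit, filled where the adjusted p was under 0.05. Egr1 and Npas4 lie near 3.4, Dusp1, Fos and Atf3 are open, and Ier2 alone is filled below 0.

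The tissues also differed in the markers of their cells. Summed forebrain excitatory neuron markers lay between 2622 and 4166 CPM in brain and between 226 and 374 CPM in cerebellum, and cerebellar granule cell markers between 24.0 and 46.0 CPM and between 426 and 760 CPM. All 5 and all 4 of these markers had counts in both tissues, and the granule cell marker Neurod1 was counted on a locus that joins it with Cerkl. Their part in the differences above was not tested.

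Other genes of the same responses moved in part with them, in lists drawn up with earlier results of these data known, with 94 different genes and 3 of them in a pair of lists. Over all genes tested, 15.3% were higher in brain and 10.8% lower, against which these counts are to be read. Of 21 further rapid transcription factors, 11 were higher in brain and 2 lower, with a median log2 difference of 0.66. Of 12 neuronal activity effectors, 9 were higher and 1 lower, with a median of 1.30. Of 28 rapid effectors and feedback inhibitors, 9 were higher and 2 lower, and of 16 upstream regulators 9 were higher and 3 lower, with medians of 0.24 and 0.47. Elk1, among the 9 higher regulators, was counted on a locus that joins it with Uxt, and Csrnp1, a rapid transcription factor that was not called, on one that joins it with Cx3cr1. Heat shock genes (10 in all, 3 higher, 2 lower, median 0.19) and glucocorticoid response genes (10 in all, 2 higher, 4 lower, median -0.14) were mixed. The largest difference was that of Egr3, a zinc finger factor related to Egr1, at 11.7 to 24.5 FPKM in brain and 0.106 to 0.699 in cerebellum (5.93, SE 0.40, adjusted p = 1.81e-11). Cort, the neuropeptide cortistatin, was higher in brain by 4.58 (SE 0.58, adjusted p = 4.82e-06) and Nptx2, a secreted pentraxin of excitatory synapses, by 3.69 (SE 0.35, adjusted p = 1.04e-08). In the other direction, Dusp5, a MAP kinase phosphatase, ranged from 2.17 to 4.10 FPKM in brain and from 8.30 to 16.2 in cerebellum (-1.79, SE 0.18, adjusted p = 1.47e-08). Amigo3, a cell adhesion gene, was lower in brain by 1.49 on the log2 scale (-1.49, SE 0.32, adjusted p = 0.000750) and Bag3, a co-chaperone, by 1.36 (-1.36, SE 0.24, adjusted p = 8.16e-05).

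No sex difference was called for the listed genes. In brain, cerebellum, heart and colon, 0 of 10 were called by edgeR and 0 of 10 by DESeq2, when edgeR called 0.0368%, 0.0301%, 0.0635% and 0.324% of all genes tested. The interaction of sex and tissue called 0 of 10, with 0.0167% of all genes. At an unadjusted p under 0.05, edgeR had 1 gene in each of brain, cerebellum and heart, 0 in colon and 0 for the interaction, and DESeq2 had 1, 1, 1 and 0 in the tissues and 0 for the interaction. Over all 29911 genes, edgeR had 1446, 916, 2886 and 2648 at that unadjusted threshold in the 4 tissues and 2026 for the interaction, so 1 or 0 of 10 is near the background and is read as no result. The gene in brain was Arc, at 22.3, 15.1 and 15.4 FPKM in females and 19.8, 25.8 and 34.7 in males, a log2 difference of 0.69 (SE 0.32) of male over female with overlap of the sexes. The gene in cerebellum was Ier2, with 4.56, 4.44 and 3.60 FPKM in females and 5.04, 5.99 and 6.77 in males, where every male library was above every female one (log2 difference 0.51, SE 0.25). In heart the gene was Fos, with a log2 difference of -2.06 (SE 0.77) of male over female, which was -0.14 without female library 3.

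The spread between replicate libraries of one tissue and sex was taken as the SD of log2 CPM. Its median over the 10 genes was 0.56, over all genes tested 0.42 and over the 94 companion genes of the lists above 0.33, with no test. Without female heart library 3 it was 0.53 for the listed genes and 0.39 for all genes. Fos had the largest SD, 0.82, above 91.7% of all genes and above 98.1% of the 2474 genes whose mean level lay within 0.5 log2 CPM of its own. Without female heart library 3 its SD was 0.58, above 71.4% of all genes, and Nr4a1 had the largest, 0.59. Among genes of like level, Egr1 (SD 0.60) lay above 98.6%, Nr4a1 (0.67) above 96.8% and Junb (0.52) above 94.3%. Without female heart library 3 their SDs were 0.48, 0.59 and 0.49, and their place among all genes moved from 70.7% to 59.0% for Egr1, from 77.9% to 72.9% for Nr4a1 and from 61.0% to 60.6% for Junb. Ier2 had the smallest SD, 0.29, above 38.0% of genes of like level, and Npas4 (0.55) lay above 27.1% of them.

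The spread differed with the tissue. In brain and cerebellum the median SD of the listed genes was 0.29 and 0.36, near that of all genes tested at 0.26 and 0.30. Npas4 was the most variable in both, at 0.72 and 0.54. In ovary it was 0.71 against 0.30, in heart 0.72 against 0.43, in testis 0.42 against 0.21 and in colon 0.49 against 0.38. Without female library 3 the heart values were 0.55 against 0.27. In heart the SD of Fos was 1.72, and 1.04 without female library 3, and that of Egr1 was 1.05 and then 0.49. In testis the SD of Arc was 0.05, the lowest of any listed gene and tissue with all 29 libraries, and that of Atf3 was 1.07, from 19, 4 and 20 reads.

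**Figure D4:**
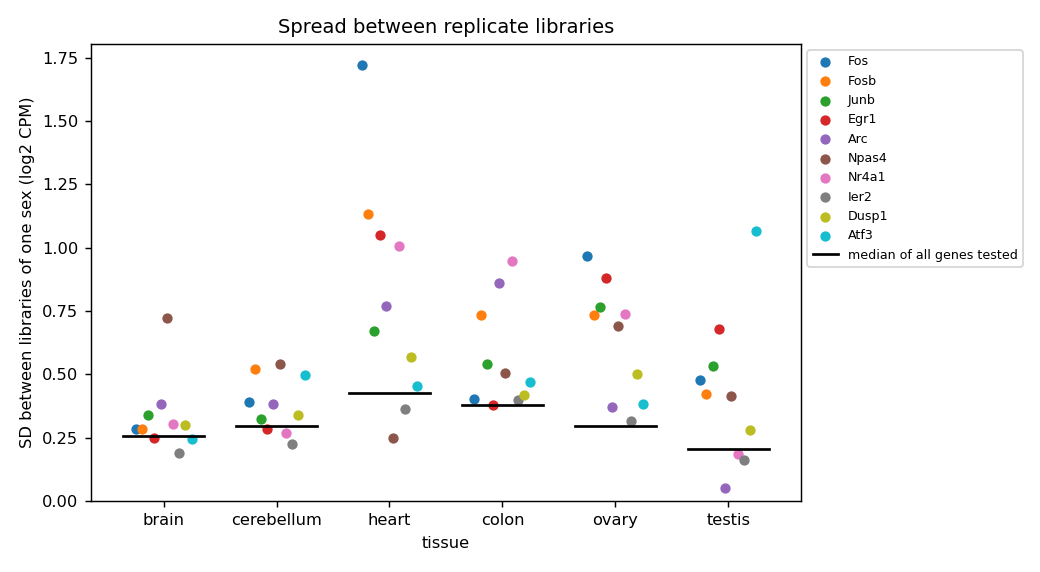
SD of log2 CPM between replicate libraries of one tissue and sex for each listed gene (points) in 6 tissues, with the median over all genes tested as a black bar. Points crowd near the bar in brain and cerebellum, while all 10 lie above it in colon and ovary, 8 in heart and 7 in testis.

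The same libraries tended to be high for several of the genes. For each library the deviation from its group mean was taken on the log2 CPM scale, and pairs of genes were correlated over 29 libraries, which share library preparation and scaling. Of 45 pairs, 42 had a correlation above 0, and the median was 0.42, against 0.06 over the 4371 pairs of companion genes. Without female heart library 3 the medians were 0.30 and 0.06, and 38 of 45 pairs were above 0. Pairs above 0.5 numbered 14 with that library and 7 without it. With the leading digit of the library code in the labels as a block within each sex, the median over the listed genes was 0.27. Junb and Ier2 had the highest correlation, 0.83 (0.79 without that library), then Fos and Egr1 at 0.81 (0.65), Fos and Junb at 0.71 (0.67) and Fosb and Arc at 0.68 (0.60). Without that library Nr4a1 and Dusp1, at 0.61 (0.53 with it), stood above Fosb and Arc. The median correlation of a gene with the other 9 was 0.17 for Dusp1, 0.23 for Npas4 and 0.27 for Arc, and 0.17 for each of the 3 without that library.

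The mean deviation over the 10 genes was highest in female heart library 3, at 0.91, where all 10 were above the group mean. It was next highest in male colon library 2, at 0.42 with 10 of 10 above, and in ovary library 3, at 0.41 with 8 of 10 above. Deviations sum to 0 within a group of 3, so the negative values of the other female heart and ovary libraries follow in part from library 3 of each and are not read on their own. Within brain, all 10 genes lay below the group mean in male library 1, and within cerebellum all 10 did so in female library 3, with mean deviations of -0.31 and -0.38.

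**Figure D5:**
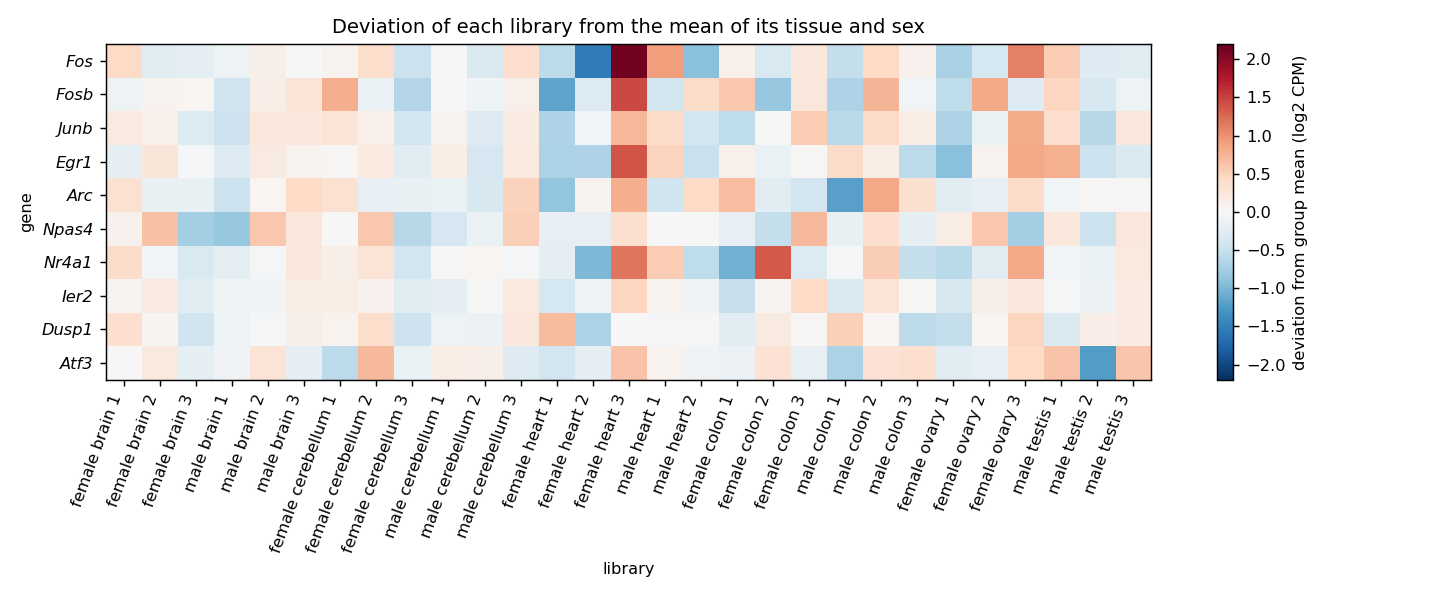
Deviation of each library from the mean of its tissue and sex, in log2 CPM, for 10 genes (rows) and 29 libraries (columns), red above and blue below the mean. Female heart library 3 is red through most rows, and ovary library 3 is red for Fos, Junb, Egr1 and Nr4a1.

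Outside the list, genes whose deviations were most like the mean of the 10 included Tmc6 (r = 0.90 over 29 libraries), Hps1 (0.87), G6pdx (0.87) and Por (0.86), among 16656 genes with a mean of at least 0 log2 CPM. Without female heart library 3 the correlations of these 4 were 0.80, 0.77, 0.77 and 0.73, and they ranked 14, 49, 39 and 110. The first 5 were then Ncstn, Arhgef11, Twnk, Letm1 and Dpp3, at 0.84 to 0.85. Which genes ranked first thus depended on 1 library, and no shared control is read from this likeness.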

How the data were processed

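RNA was sequenced from ribosomal RNA-depleted, strand-marking libraries of 6 tissues. The authors deposited raw whole-number counts per gene, not normalized. Per the submitters' processing notes, the tools included FastQC 0.11.8, MultiQC 0.9, HISAT2 2.0.5 and featureCounts 1.6.3, with the mm10 build, and genes were a PacBio Iso-seq annotation combined with ENSEMBL. Whether the counter used strand is not given in the sources used here. Depth was 11742417 to 36194255 counts a library, which limits genes with few reads. The limit given for libraries without reads covers counting error only, while SDs and standard errors include the spread between libraries.

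From these counts, genes passing filterByExpr (29911) were fitted in R 4.3.3 with edgeR 4.0.16, using TMM factors and quasi-likelihood F tests over 10 groups of tissue and sex, p-values adjusted across the whole fit by Benjamini-Hochberg and a threshold of 0.05. Tissue values average the sexes. FPKM used total counts and merged exon length, and log2 CPM used a prior count of 2. The fit was tested on simulated data. Alternatives were DESeq2 1.42.0, its size factors, total counts, no filter, a prior count of 0.5, the compared tissues alone, and each library left out. A block was also fitted, either the replicate number or the leading digit of the library code within each sex. Settings without female heart library 3 for the closest genes and the heart spread were added after seeing the data.

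The members and lists were chosen with earlier results of these data known. Named genes were the 10 listed, the 5 others most correlated with their mean deviation (1 of which is not reported here), and up to 3 companion genes each way with the largest called, non-overlapping difference between brain and cerebellum. Promoter sequences are RefSeq GRCm38.p6. The replicate numbers did not pair the libraries: in 1 of 45 pairs of groups did every same-numbered correlation exceed 0.1.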

Additional observations from a re-analysis of the deposited data

Results flagged for a closer look

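In 40 groups of 5 or 6 libraries of one tissue and gene, the gap between the most extreme library and its nearest neighbour was set against the whole range, a test that chance passes in about 1 of 20 groups. It marked 9 groups, and in 7 of them, besides Npas4 in heart, the library was female heart library 3. There Fos was 9.13 FPKM, with the next highest heart library at 0.920, and Fosb was 0.518 FPKM with the next at 0.0887. Egr1 was 17.6 FPKM with the next at 4.37, Nr4a1 8.32 with the next at 2.71, and Junb 13.8 with the next at 5.77. Ier2 was 11.3 FPKM with the next at 4.94, and Atf3 was 6.57 with the next at 2.83. These 7 marks are from 1 library and are not separate events. Npas4 was 0.0101 FPKM there, a single read against 0 in the other heart libraries, which passes this test by construction and is not counted with the 7. The remaining mark was Fosb in female cerebellum library 1, at 0.507 FPKM against a median of 0.208 for that tissue.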

How the results depend on the processing

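The counts of called genes stayed within 1.5 times the reported ones under every alternative run. All 10 genes differed between tissues and 0 differed by sex or interaction in each of them, and the brain and cerebellum call was 7 of 10, or 8 with the libraries of those tissues alone, and 7 to 8 with 1 library left out. The pairwise total of 112 lay between 108 and 114 across other settings, and between 108 and 115 with 1 library left out. The median spread of 0.561 was 0.511 to 0.612 across settings and 0.526 to 0.575 with 1 library left out. The median shared deviation of 0.416 was 0.538 with total counts, 0.396 with a prior count of 0.5, 0.408 with the replicate block and 0.269 with the library code as a block, and lay between 0.300, without female heart library 3, and 0.447 with 1 library left out. The cause was not tested. With the replicate block, 111 pairwise calls were made, 7 genes were called for brain and cerebellum, and 1 single-gene call was lost, that of Dusp1 between brain and colon (adjusted p = 0.0541). The library code block could not be fitted for the sex differences, the tissue test or the pairwise total, since codes are nested in sex. With total counts, 6 single-gene calls were lost and 4 gained. No direction of a called value reversed. Few reads limit Npas4 outside brain, Arc in heart, colon and ovary, and Atf3 in testis.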

Other observations

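The labels carry a library code whose meaning is not given, and its leading digit (0 where the code has a single digit) was set beside the mean deviation of the 10 genes. The last digit followed the tissue in most libraries. In males, for example, codes 61, 62, 63, 64 and 65 were brain, cerebellum, heart, colon and testis, so a leading digit spans tissues. What such libraries share is not given, and the main tests do not use it. Within males, 4 of 4 libraries with leading digit 7 lay above their group mean, from 0.10 to 0.42 on the log2 CPM scale, against 1 of 5 with digit 5 and 2 of 5 with digit 6. Within females, 3 of 3 libraries with digit 0 lay above it, female heart library 3 among them, against 2 of 5 with digit 1, 0 of 1 with digit 2 and 3 of 6 with digit 4. This was noticed in the data, and its part in the shared deviations was not tested beyond the fit with that digit as a block.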
